A study of Mus musculus with 24 samples.

Results

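The effect of lacking MLL1 in mouse embryonic stem cells that also lacked MLL2 was read from 6 of the 24 libraries of the series. These 6 belong to double-KO and Mll2-KO cells at day 0. There were 3 double-KO libraries and 3 Mll2-KO libraries, chosen by their genotype and day labels alone. Double-KO cells lacked both Mll1 and Mll2, and Mll2-KO cells lacked Mll2 only. Both groups had been treated with 800 nM 4-hydroxytamoxifen (4-OHT) for 48 h, the drug that triggers the Cre-inducible Mll2 deletion, and both were kept undifferentiated on gelatin in 15% fetal bovine serum with leukemia inhibitory factor (LIF). Mll1 had been removed earlier, by CRISPR editing with guides on both sides of the deleted region. The sources used here do not give the number of clones behind each genotype, so a property of a clone and the loss of MLL1 cannot be told apart. Nothing in the labels says that the 3 libraries of a group came from separate cultures, and p-values therefore measure the spread between these libraries, which may be technical. Untreated Mll1-KO and WT libraries of day 0 were used for comparison, as were double-KO and Mll2-KO libraries after 4 days in 10% serum with 1 µM retinoic acid, again with 3 libraries a group.

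MLL1 and MLL2 are related histone methyltransferases, encoded by Kmt2a and Kmt2b, that place methyl groups on lysine 4 of histone H3 as part of COMPASS-like complexes. Both carry a CXXC domain that binds unmethylated CpG dinucleotides, and both are known as regulators of developmental genes, MLL1 above all of the Hox clusters. Embryonic stem cells kept in serum and LIF are a mixed culture: most cells express pluripotency factors, and a smaller fraction expresses genes of the primitive endoderm, the extraembryonic lineage that forms the visceral and parietal endoderm and their basement membrane.

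Kmt2a reads were nearly gone from the double-KO libraries. Kmt2a (chromosome 9, 44803355 to 44881296, mm10) had normalized counts, that is reads divided by the size factor of the library, of 31.6, 37.0 and 20.6 in double-KO libraries, against 1299.6, 1369.6 and 1473 in Mll2-KO libraries (log2 fold change -5.53 ± 0.2, adjusted p = 1.5e-14 from limma; ± here and below is the standard error beside a fold change). Kmt2b had 2565, 2798 and 2556 in double-KO libraries, against 2379.9, 2442 and 2798 in Mll2-KO libraries, and a count over the whole gene checks nothing on the Mll2 deletion that both groups carry. The libraries held 18.2 to 22.8 M (mega) recovered reads. The stem cell label was met by its markers: Pou5f1 and Nanog, core pluripotency factors, were highly expressed in all 6 libraries, and of 15 pluripotent cell markers 6 rose, 6 fell and 3 did not pass the test. Mll2-KO replicate 3 stood apart from the other 2 libraries of its group, with a chi-square per degree of freedom of 11.4 to 11.5 over genes, against 3.54 between replicates 1 and 2. Results that it moved are given with and without it unless stated.

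Expressed genes differed in large number, most of them by little. Of 13984 genes tested, 6667 (47.7%) passed a Benjamini-Hochberg adjusted p of 0.05, with 3266 higher (23.4%) and 3401 lower (24.3%) in double-KO cells. Changes of at least 2-fold fell mainly downwards, with 324 genes higher (2.32%) and 779 lower (5.57%). The median change over all genes tested was -0.013 on the log2 scale. Scaling to column totals moved that median to -0.074 and gave 2565 genes higher and 4178 lower, and with quantile scaling the at least 2-fold calls stood at 432 higher and 450 lower. Fold changes are on the scale of log2(normalized count + 1), which understates the change of low genes. The 3 double-KO and 3 Mll2-KO libraries did not overlap for 52.5% of genes.

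Many endoderm genes were lower in double-KO cells. Of 15 endoderm transcription factors, 0 rose, 11 fell and 4 did not pass the test, with a median log2 fold change of -1.35. Gata4, a zinc finger factor of the primitive endoderm, had 241, 242 and 217 in double-KO libraries, against 856, 824 and 953 in Mll2-KO libraries (log2 fold change -1.91 ± 0.09, adjusted p = 1.2e-12). Sox17, an HMG box factor of endoderm, had 11.8, 10.9 and 18.9 in double-KO libraries, against 85.0, 133 and 125 in Mll2-KO libraries (log2 fold change -2.97 ± 0.25, adjusted p = 9.1e-09), and the groups did not overlap for either gene. Foxq1, a forkhead factor, had 57.2, 41.3 and 41.3 in double-KO libraries, against 316, 313 and 313 in Mll2-KO libraries (log2 fold change -2.74 ± 0.14, adjusted p = 6.8e-12). Gata6 (log2 -1.89, adjusted p = 5e-08), Foxa2 (log2 -2.54, adjusted p = 4.1e-05) and Hnf4a (log2 -2.03, adjusted p = 0.0022) fell too. Klf5, Gsc and Sox7 were among those that did not pass the test, with log2 fold changes of 0.12, 0.18 and -0.32. Without Mll2-KO replicate 3, Klf5 passed as higher (adjusted p = 0.0042) and Sox7 as lower (adjusted p = 0.03), as Sox7 also did with edgeR and with scaling to column totals. These are bulk libraries, in which fewer endoderm-like cells and less RNA per cell cannot be told apart.

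Genes by which visceral endoderm takes up proteins fell further. Of 11 endoderm endocytosis genes, 1 rose, 9 fell and 1 did not pass the test, with a median of -2.19. Cubn, which encodes the scavenger receptor cubilin, had 188, 204 and 197 in double-KO libraries, against 2571, 2277 and 2256 in Mll2-KO libraries (log2 fold change -3.58 ± 0.067, adjusted p = 9.2e-20), and every double-KO library lay far below every Mll2-KO library. Amn, the transmembrane partner of cubilin, fell with it (log2 -2.76, adjusted p = 1e-09), as did Dab2, an adaptor of clathrin-coated pits, which had 70.0, 69.9 and 95.4 in double-KO libraries, against 966, 834 and 781 in Mll2-KO libraries (log2 fold change -3.45 ± 0.12, adjusted p = 7.3e-15). Nostrin, a regulator of endocytosis, had 14.8, 7.58 and 5.16 in double-KO libraries, against 175, 139 and 153 in Mll2-KO libraries (log2 fold change -4.05 ± 0.3, adjusted p = 1.2e-09). Hkdc1, a hexokinase placed on this list, had 6.9, 1.68 and 5.16 in double-KO libraries, against 135, 105 and 119.7 in Mll2-KO libraries (log2 fold change -4.57 ± 0.39, adjusted p = 8.9e-09), and its double-KO libraries held only a few reads each. Lrp2, or megalin, the receptor that works with cubilin, changed less (log2 -0.59, adjusted p = 2.2e-06), and Cltb, a clathrin light chain, rose (log2 0.36, adjusted p = 0.00016). The 300 bases around the Cubn start site, at chr2:13491827-13492126 on the minus strand of GRCm38.p6 as given by RefSeq, are shown with CpG dinucleotides in capitals, because the promoter of this strongly lowered gene holds only 5 of them.
Cubn: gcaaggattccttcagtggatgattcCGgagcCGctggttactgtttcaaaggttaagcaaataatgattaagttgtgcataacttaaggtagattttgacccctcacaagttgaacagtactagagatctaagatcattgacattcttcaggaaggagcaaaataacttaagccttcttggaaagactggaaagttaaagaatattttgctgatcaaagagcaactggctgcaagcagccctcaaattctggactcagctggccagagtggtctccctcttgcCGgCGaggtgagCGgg

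Basement membrane genes fell together. Of 19 members, 0 rose, 17 fell and 2 did not pass the test, with a median of -1.09. Col4a1 and Col4a2 encode the chains that twine into the type IV collagen of basement membranes. Col4a1 (chromosome 8, 11198423 to 11312826) had 866, 791 and 775 in double-KO libraries, against 8459, 7883 and 8099 in Mll2-KO libraries (log2 fold change -3.33 ± 0.061, adjusted p = 9.2e-20), a 10.1-fold fall. Col4a2 (chromosome 8, 11312805 to 11449287) had 474, 449.6 and 426 in double-KO libraries, against 4627, 4451 and 4472 in Mll2-KO libraries (log2 fold change -3.33 ± 0.057, adjusted p = 3.4e-20). The fold of the pair was nearly the same, and their annotated start sites lie 21 bases apart on opposite strands. The promoter windows of the pair therefore share 78 bases, and they are shown for that shared, CpG-rich stretch, with CpG in capitals: Col4a1 at chr8:11312777-11313076 on the minus strand with 37 CpG, and Col4a2 at chr8:11312555-11312854 on the plus strand with 33 CpG, both from RefSeq on GRCm38.p6.
Col4a1: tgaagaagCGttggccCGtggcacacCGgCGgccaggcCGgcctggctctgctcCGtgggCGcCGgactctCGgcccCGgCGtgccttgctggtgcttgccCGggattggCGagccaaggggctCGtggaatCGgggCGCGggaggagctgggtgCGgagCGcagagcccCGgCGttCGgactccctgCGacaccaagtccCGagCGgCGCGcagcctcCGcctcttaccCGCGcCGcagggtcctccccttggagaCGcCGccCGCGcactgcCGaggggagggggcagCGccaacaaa
Col4a2: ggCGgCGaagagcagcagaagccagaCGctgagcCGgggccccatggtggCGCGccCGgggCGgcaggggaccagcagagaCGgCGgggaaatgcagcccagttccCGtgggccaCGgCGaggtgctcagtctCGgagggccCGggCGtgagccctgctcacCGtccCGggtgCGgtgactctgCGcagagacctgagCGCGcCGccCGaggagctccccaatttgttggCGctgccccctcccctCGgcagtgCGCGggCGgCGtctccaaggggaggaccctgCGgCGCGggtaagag

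The laminin chains of the same membrane fell unequally. Lama1, the alpha chain of embryonic laminin, had 2131, 2039.9 and 1868 in double-KO libraries, against 8116, 7751 and 8245 in Mll2-KO libraries (log2 fold change -2.0 ± 0.058, adjusted p = 2.6e-16). Lamb1, its beta chain, had 2108, 2169.6 and 2279.8 in double-KO libraries, against 7191, 7150.4 and 6925 in Mll2-KO libraries (log2 fold change -1.70 ± 0.059, adjusted p = 7.8e-15), whereas Lamc1, the gamma chain shared by most laminins, fell less (log2 -0.43, adjusted p = 2.1e-07). Sparc, a secreted collagen-binding protein, had 4103, 3726 and 4135 in double-KO libraries, against 10847, 10393 and 12275 in Mll2-KO libraries (log2 fold change -1.48 ± 0.055, adjusted p = 2.4e-14). Enzymes that modify or fold collagen fell as well: the prolyl hydroxylases P4ha2 (log2 -2.10, adjusted p = 4.2e-13) and P4ha1 (log2 -1.20, adjusted p = 6.1e-10), the lysyl hydroxylase Plod2 (log2 -1.11, adjusted p = 1.6e-10) and the chaperone Serpinh1 (log2 -1.0, adjusted p = 4e-10). Agrn and Lama5 did not pass the test (0.061 and 0.068). Of 26 collagen genes tested, 2 rose, 6 fell and 18 did not pass the test, with a median of -0.23, so the median collagen gene changed far less than the Col4a1 and Col4a2 pair.

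Of 13 parietal endoderm markers, 1 rose, 9 fell and 3 did not pass the test. Srgn, a proteoglycan core protein, had 48.3, 27.8 and 55.9 in double-KO libraries, against 716, 615 and 697 in Mll2-KO libraries (log2 fold change -3.97 ± 0.18, adjusted p = 8.8e-13). Pth1r, the parathyroid hormone receptor of parietal endoderm (log2 -3.12, adjusted p = 6.2e-12), Pdgfra, the PDGF receptor that marks primitive endoderm (log2 -2.61, adjusted p = 4.2e-11), and Plat, tissue plasminogen activator (log2 -2.44, adjusted p = 7.8e-08), fell too. The 1 rise, that of the keratin gene Krt19 (log2 0.68, adjusted p = 0.043), was lost without Mll2-KO replicate 1 (adjusted p = 0.34), without double-KO replicate 1 (0.12) or 2 (0.09), and with edgeR, DESeq2 or scaling to column totals. Over the whole list of 16 primitive and visceral endoderm markers, 12 of 13 tested members fell, with a median of -2.54. Most of these members stand on the lists above too, so the count is not a separate result. The summed level ran from 23102 to 24418 in double-KO libraries, against 44726 to 48475 in Mll2-KO libraries. Apoe, given below, held most of that sum in both groups. Afp and Ttr, products of mature visceral endoderm, were at 0 in all 6 libraries. Among fetal plasma protein genes, 1 rose, 5 fell and 5 did not pass the test of 11 tested. Trf, transferrin, fell (log2 -1.55, adjusted p = 1.5e-10), and Apoe, a lipid carrier with 20526, 19988 and 19646 in double-KO libraries, against 23432, 23814 and 26833 in Mll2-KO libraries, fell only slightly (log2 -0.30, adjusted p = 7.3e-05).

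**Figure D1:**
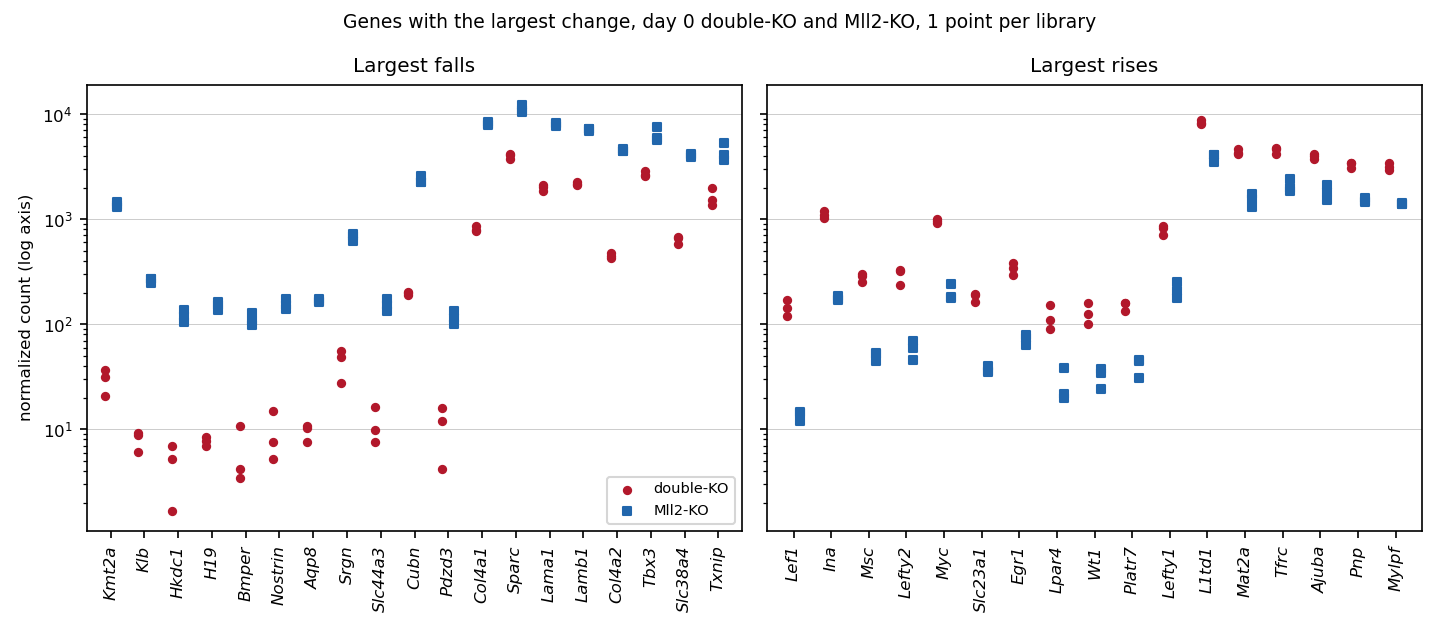
Normalized count (log axis) of the genes with the largest falls (left) and rises (right) in each day 0 library, with double-KO libraries as red circles left of Mll2-KO libraries as blue squares. Every gene shown has 3 double-KO libraries that lie apart from the 3 Mll2-KO libraries, which the choice of genes required; Eif3j1, Amd2, Mup6 and Rn45s are left out because near-identical copies or ribosomal RNA make their counts uncertain.

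Further genes with large falls had other roles. Klb, the co-receptor through which FGF21 and FGF15 signal, had 8.88, 9.26 and 6.02 in double-KO libraries, against 269, 246 and 267 in Mll2-KO libraries (log2 fold change -4.87 ± 0.22, adjusted p = 6.7e-13), and its partner receptor Fgfr4 fell less (log2 -1.61, adjusted p = 8.5e-08). H19, an imprinted long noncoding RNA, had 6.9, 8.42 and 7.74 in double-KO libraries, against 154, 164 and 138 in Mll2-KO libraries (log2 fold change -4.14 ± 0.17, adjusted p = 2.2e-13). Bmper, a secreted modulator of BMP signalling, had 10.8, 4.21 and 3.44 in double-KO libraries, against 97.6, 127 and 108 in Mll2-KO libraries (log2 fold change -4.09 ± 0.32, adjusted p = 2.4e-09). The membrane proteins Aqp8, a water channel (log2 -4.0, adjusted p = 6.9e-10), and Slc44a3, of the choline transporter-like family (log2 -3.71, adjusted p = 7.2e-10), and the scaffold gene Pdzd3 (log2 -3.48, adjusted p = 1.2e-07) were among the 12 largest falls.

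Slc38a4, an imprinted amino acid transporter, had 668, 577 and 680.0 in double-KO libraries, against 4148, 4079.8 and 3948 in Mll2-KO libraries (log2 fold change -2.66 ± 0.058, adjusted p = 1.3e-18), with no overlap of the groups. Txnip, an inhibitor of thioredoxin and glucose uptake, had 1369, 1514 and 1969 in double-KO libraries, against 3664, 4109 and 5303 in Mll2-KO libraries (log2 fold change -1.43 ± 0.11, adjusted p = 3.2e-09). Tbx3, a T-box factor of naive stem cells and endoderm, had 2638, 2601 and 2873 in double-KO libraries, against 5677, 5986 and 7537 in Mll2-KO libraries (log2 fold change -1.23 ± 0.08, adjusted p = 1.7e-10), and Mll2-KO replicate 3 was the highest library for both genes. Of 224 solute carriers tested, 33 rose and 73 fell, with a median of -0.16.

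The largest rise among called genes with a double-KO mean of at least 100 and no overlap of the groups was that of Lef1. Lef1, a transcription factor that carries the Wnt signal to DNA, had 142, 168 and 120.4 in double-KO libraries, against 14.3, 12.1 and 14.5 in Mll2-KO libraries (log2 fold change 3.30 ± 0.16, adjusted p = 1.9e-12), a 9.82-fold rise. Sp5, a direct target of Wnt signalling, had 58.2, 48.0 and 40.4 in double-KO libraries, against 7.16, 6.45 and 2.29 in Mll2-KO libraries (log2 fold change 3.08 ± 0.33, adjusted p = 2e-07). Notum, a secreted enzyme that inactivates Wnt ligands, had 239.7, 281 and 216 in double-KO libraries, against 78.8, 70.9 and 55.7 in Mll2-KO libraries (log2 fold change 1.83 ± 0.14, adjusted p = 1e-09). The rest of the pathway did not follow in 1 direction. Of 43 Wnt pathway genes tested, 13 rose, 12 fell and 18 did not pass the test, and the median was 0.032. Both counts were near the shares of all genes tested, 23.4% higher and 24.3% lower. The receptor Lgr4 rose (log2 0.66, adjusted p = 6.5e-09), and the antagonist Dkk1 (log2 -2.84, adjusted p = 0.00015) and the receptors Fzd6 (log2 -1.40, adjusted p = 2.3e-05) and Fzd4 (log2 -1.15, adjusted p = 0.0023) fell. With scaling to column totals, 9 Wnt genes were higher and 15 lower. The promoter window of Sp5 is shown, at chr2:70474673-70474972 on the plus strand of GRCm38.p6 from RefSeq with CpG in capitals, because it holds the letters CTTTGA of the TCF and LEF motif at 204 and 104 bases before the start site. The window of Cubn, a gene that fell, holds them as well, on the other strand as TCAAAG, at 204 and 36 bases before its start site. These letters, on either strand, stand in 11.6% of the promoter windows of all genes tested.
Sp5: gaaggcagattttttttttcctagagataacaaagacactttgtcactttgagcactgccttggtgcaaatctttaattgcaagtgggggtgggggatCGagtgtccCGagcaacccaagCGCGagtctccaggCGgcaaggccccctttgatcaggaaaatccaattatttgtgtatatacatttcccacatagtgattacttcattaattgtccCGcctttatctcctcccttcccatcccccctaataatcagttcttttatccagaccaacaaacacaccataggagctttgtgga

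Lefty2 and Lefty1, secreted inhibitors of Nodal, rose together. Lefty2 had 330.4, 321 and 236 in double-KO libraries, against 69.8, 58.8 and 45.8 in Mll2-KO libraries (log2 fold change 2.33 ± 0.16, adjusted p = 3.8e-10). Lefty1 had 854, 709.7 and 819 in double-KO libraries, against 255, 177 and 207 in Mll2-KO libraries (log2 fold change 1.90 ± 0.12, adjusted p = 1.1e-10), and all double-KO libraries lay above all Mll2-KO libraries for both genes. The ligand Nodal itself did not pass the test (log2 -0.038, adjusted p = 0.57), nor did the effectors Smad2 (0.026) and Smad3 (0.16). Of 22 Nodal pathway genes, 6 rose, 7 fell and 9 did not pass the test, beside 23.4% higher and 24.3% lower over all genes. Gdf1 shares a locus with Cers1, and the sum of both was lower in double-KO libraries by a ratio of 0.699.

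FGF-ERK pathway genes, a list that runs from ligands and receptors to target genes, changed in both directions. Of 34 genes tested, 17 rose, 11 fell and 6 did not pass the test, with a median of 0.41; edgeR and scaling to column totals each gave 14 higher and 11 lower. Egr1, an immediate early transcription factor, had 382, 296 and 341 in double-KO libraries, against 74.3, 79.0 and 63.3 in Mll2-KO libraries (log2 fold change 2.22 ± 0.13, adjusted p = 7.1e-11). Feedback inhibitors and ETS factors of the pathway rose, among them Spry4 (log2 0.77, adjusted p = 1.3e-08), Spred1 (log2 0.90, adjusted p = 5.9e-11), Dusp6 (log2 0.45, adjusted p = 1.5e-05), Etv5 (log2 0.68, adjusted p = 1e-09) and Etv1 (log2 0.72, adjusted p = 5.8e-06). The feedback gene Dusp4 fell (log2 -0.88, adjusted p = 1.2e-06), as did the ligand Fgf4 (log2 -0.33, adjusted p = 0.00045). In the BMP pathway 4 of 22 genes rose, 6 fell and 12 did not pass the test, near the 23.4% higher and 24.3% lower of all genes. The ligand Bmp4 (log2 0.91, adjusted p = 7.2e-07) and the target genes Id1 (log2 0.79, adjusted p = 3.3e-06), Id2 (log2 0.79, adjusted p = 0.00098) and Id3 (log2 0.87, adjusted p = 1.9e-05) rose, and Bmp7 fell (log2 -1.53, adjusted p = 5.9e-08).

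Myc, the growth-promoting transcription factor, had 1008, 961 and 916 in double-KO libraries, against 241, 179.8 and 177 in Mll2-KO libraries (log2 fold change 2.28 ± 0.12, adjusted p = 4.4e-12). Of 32 MYC target genes of the nucleolus and of growth, 25 rose, 1 fell and 6 did not pass the test, with a median of 0.27, so the shifts were many and small. Polr1b, a subunit of RNA polymerase I (log2 0.75, adjusted p = 9.3e-10), Srm, spermidine synthase (log2 0.67, adjusted p = 4.8e-09), and the cyclin genes Ccnd1 (log2 0.70, adjusted p = 1.4e-05) and Ccnd2 (log2 0.66, adjusted p = 4.2e-06) rose most in that list, and Tert fell (log2 -0.54, adjusted p = 7.1e-05). Rn45s, the ribosomal RNA precursor, varied widely between libraries, with 107692, 192696 and 100475 in double-KO libraries, against 64789, 56573 and 58203 in Mll2-KO libraries; polyA selection removes most of this RNA, and its part in the difference was not tested.

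Rises at higher levels included metabolic genes. Mat2a, which makes S-adenosylmethionine, the methyl donor, had 4699, 4299.6 and 4149 in double-KO libraries, against 1727, 1561 and 1310.2 in Mll2-KO libraries (log2 fold change 1.52 ± 0.077, adjusted p = 4.4e-12). L1td1, an RNA-binding protein derived from a LINE1 element, had 8750.3, 8133 and 8158 in double-KO libraries, against 4091, 4049 and 3488 in Mll2-KO libraries (log2 fold change 1.11 ± 0.057, adjusted p = 4.7e-12). Tfrc, the transferrin receptor, had 4794, 4634 and 4200.3 in double-KO libraries, against 2427, 1848 and 1977 in Mll2-KO libraries (log2 fold change 1.13 ± 0.073, adjusted p = 1.6e-10). Pnp, a purine salvage enzyme (log2 1.13, adjusted p = 9.3e-12), Ajuba, a LIM domain adaptor (log2 1.15, adjusted p = 6.9e-10), and Mylpf, a myosin light chain (log2 1.18, adjusted p = 1.2e-12), each rose a little over 2-fold. Amd2 and Amd1, near-identical copies of the decarboxylase of polyamine synthesis, had to be summed, since reads can be shared between them. Their sum was 4979, 4710 and 4860 in double-KO libraries, against 2984, 2973 and 2914 in Mll2-KO libraries.

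Many neuronal genes rose, at low to moderate counts. Of 24 tested among 32, 14 rose, 2 fell and 8 did not pass the test, with a median of 0.53. Ina, an intermediate filament of neurons, had 1036, 1192 and 1089 in double-KO libraries, against 173, 170.1 and 184 in Mll2-KO libraries (log2 fold change 2.65 ± 0.074, adjusted p = 1.7e-16). Scn3a, a sodium channel subunit, had 274, 239.9 and 259 in double-KO libraries, against 67.1, 73.4 and 82.4 in Mll2-KO libraries (log2 fold change 1.78 ± 0.15, adjusted p = 4.2e-09). Tubb3, neuronal beta tubulin (log2 1.01, adjusted p = 2.1e-10), Gap43, a growth cone protein (log2 1.41, adjusted p = 7.1e-05), and Htr1b, a serotonin receptor (log2 2.83, adjusted p = 2.9e-06), rose as well. Mapt, which encodes tau, fell (log2 -0.54, adjusted p = 2.1e-06). Of 7 neural progenitor markers tested among 14, 3 rose, 0 fell and 4 did not pass the test. The rises were led by Pax6 (log2 1.57, adjusted p = 2.7e-05) and Nes (log2 0.74, adjusted p = 8e-05). The median of the list was only 0.014. It ran from -0.14 without double-KO replicate 3, where 2 genes were called, to 0.36 with quantile scaling. The remaining genes with the largest rises were Msc, a basic helix-loop-helix repressor (log2 2.46, adjusted p = 1.7e-09), Slc23a1, a vitamin C transporter (log2 2.26, adjusted p = 1.1e-09), Lpar4, a lysophosphatidic acid receptor (log2 2.11, adjusted p = 2.2e-07), Wt1, a zinc finger factor (log2 1.97, adjusted p = 5e-08), and the noncoding Platr7 (log2 1.91, adjusted p = 2.8e-08). Mup6 (log2 2.01, adjusted p = 4.1e-07) belongs to a family of near-identical genes, and its counts are uncertain.

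**Figure D2:**
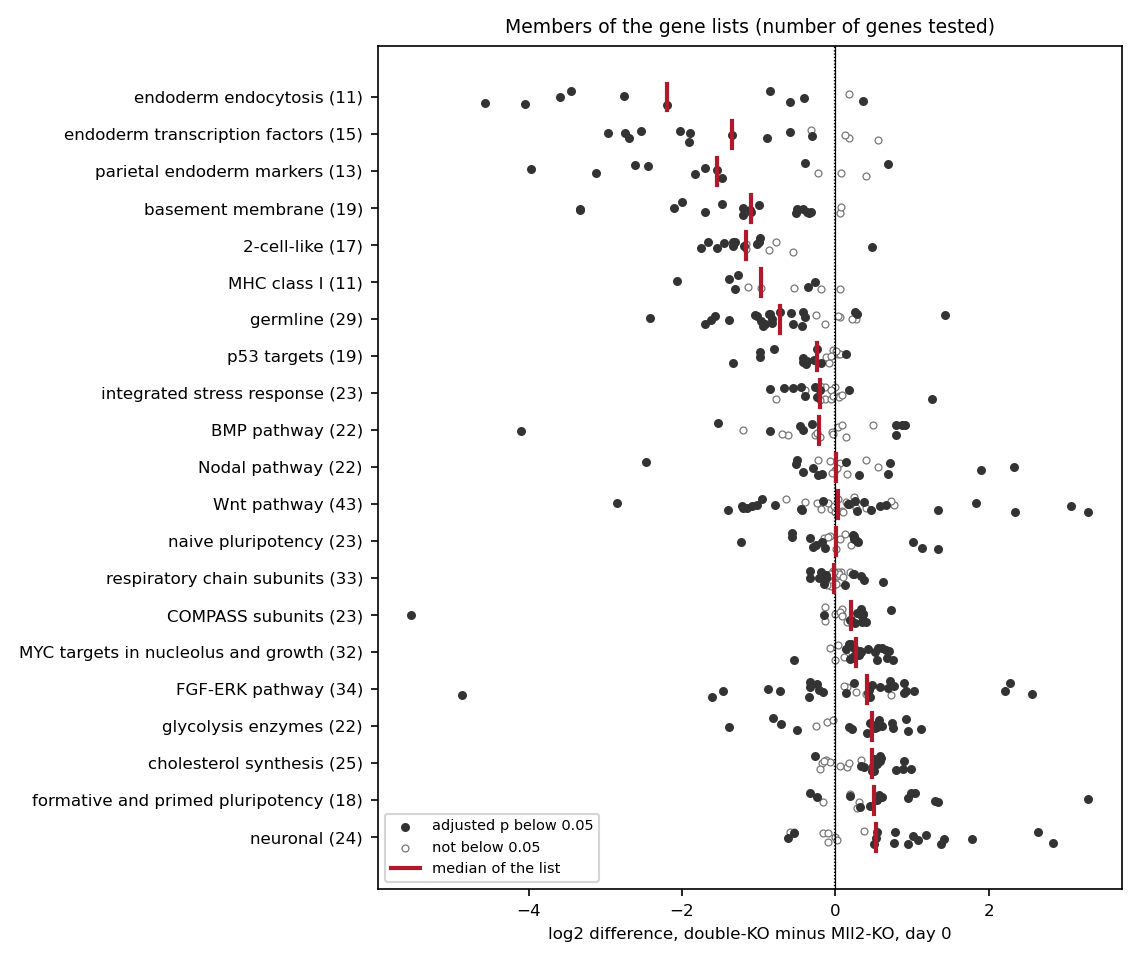
Log2 difference of the tested members of 21 gene lists at day 0, double-KO minus Mll2-KO, 1 point per gene, filled where the adjusted p was below 0.05 and open where it was not. Red bars mark the median of each list, the solid line 0 and the dotted line the median of all genes (-0.013); endoderm and basement membrane lists lie to the left and neuronal, formative, cholesterol and glycolysis lists to the right.

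Pluripotency factors changed by moderate amounts and in both directions. Of 23 naive pluripotency genes, 8 rose, 8 fell and 7 did not pass the test, with a median of 0.0075. Nanog had 11434, 11065 and 11027 in double-KO libraries, against 16651, 16684 and 16149.8 in Mll2-KO libraries (log2 fold change -0.56 ± 0.041, adjusted p = 1e-09). Klf4, a reprogramming factor that acts downstream of LIF, had 6205, 6438 and 6244 in double-KO libraries, against 9224, 9400.3 and 9231 in Mll2-KO libraries (log2 fold change -0.56 ± 0.043, adjusted p = 1.6e-09), and Esrrb, an orphan nuclear receptor, fell less (log2 -0.25, adjusted p = 0.0047). Pou5f1 did not pass the test (log2 -0.073, adjusted p = 0.21), although it was lower when scaled to column totals (adjusted p = 0.012) or by quantiles (0.028), and Sox2 (log2 0.23, adjusted p = 0.00066) and Zfp42 (log2 0.28, adjusted p = 2.9e-05) rose slightly, Sox2 not with quantile scaling. Dppa3, a factor of germ cells and early embryos (log2 1.34, adjusted p = 7.3e-07), Gbx2, a target of LIF (log2 1.13, adjusted p = 1.9e-09), and Nr5a2, a nuclear receptor upstream of Pou5f1 (log2 1.01, adjusted p = 3.5e-09), rose at least 2-fold.

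Genes of the formative and primed states, which follow naive pluripotency, rose more often. Of 18 tested, 12 rose, 2 fell and 4 did not pass the test, with a median of 0.50. Dnmt3b, a de novo DNA methyltransferase, had 4622, 4629.6 and 4669.6 in double-KO libraries, against 2579.6, 2480.5 and 2193 in Mll2-KO libraries (log2 fold change 0.94 ± 0.06, adjusted p = 1.4e-10). Zic2, a zinc finger factor, had 171, 154 and 184 in double-KO libraries, against 62.7, 70.1 and 66.3 in Mll2-KO libraries (log2 fold change 1.34 ± 0.12, adjusted p = 2.8e-08), and Cdh2, N-cadherin (log2 1.30, adjusted p = 2.6e-05), Grhl2 (log2 1.04, adjusted p = 6.1e-09) and Sall2 (log2 0.99, adjusted p = 3.4e-07) rose by about 2-fold or more. Otx2, another marker of the state, had few reads and did not pass the test (log2 0.28, adjusted p = 0.59), and Dnmt3a fell (log2 -0.33, adjusted p = 0.0038). Lef1 and Dnmt3b stand on other lists too.

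Glycolysis genes were higher in double-KO cells. Of 22 tested, 15 rose, 4 fell and 3 did not pass the test, with a median of 0.48, and the summed level was 351450.0 to 358646 in double-KO libraries, against 278852 to 286835 in Mll2-KO libraries. Ldha, lactate dehydrogenase, had 17778, 18222 and 18372 in double-KO libraries, against 10631, 10220.1 and 7638 in Mll2-KO libraries (log2 fold change 0.95 ± 0.083, adjusted p = 1.3e-08). Slc16a3, a lactate exporter, had 801, 828 and 782 in double-KO libraries, against 419.8, 376 and 319 in Mll2-KO libraries (log2 fold change 1.12 ± 0.09, adjusted p = 3.6e-09). Tpi1 (log2 0.92, adjusted p = 1.6e-10), Pgk1 (log2 0.75, adjusted p = 5.6e-10) and the glucose transporter Slc2a1 (log2 0.74, adjusted p = 3.5e-09) rose, whereas the glucose transporter Slc2a3 (log2 -0.81, adjusted p = 1.7e-10), the phosphofructokinase Pfkm (log2 -0.71, adjusted p = 2.1e-06), Hk1 (log2 -0.50, adjusted p = 9.1e-06) and Eno2 (log2 -1.39, adjusted p = 4.9e-06) fell. Hypoxia targets were mixed, and of 25, 9 rose, 5 fell and 11 did not pass the test. The mitophagy receptor Bnip3 rose (log2 0.96, adjusted p = 7.4e-10) and the mTOR inhibitor Ddit4 fell (log2 -0.62, adjusted p = 0.00013). Of 33 respiratory chain subunits, 6 rose, 7 fell and 20 did not pass the test, with a median of -0.012.

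Many cholesterol synthesis genes rose. Of 25, 15 rose, 1 fell and 9 did not pass the test, with a median of 0.48. Idi1, the isomerase of isopentenyl diphosphate, had 2854, 2584 and 2634 in double-KO libraries, against 1417, 1075 and 1995 in Mll2-KO libraries (log2 fold change 0.89 ± 0.13, adjusted p = 8.1e-06). Sqle, squalene epoxidase, had 2266, 2039 and 2110.4 in double-KO libraries, against 1342, 1129 and 1887 in Mll2-KO libraries (log2 fold change 0.59 ± 0.11, adjusted p = 0.00021). Mll2-KO replicate 3 was the highest library of its group for both genes, and the groups did not overlap. The summed level of the list was 43254 to 48286 in double-KO libraries, against 28822 to 48294 in Mll2-KO libraries, so the groups overlapped. Without replicate 3, 18 genes rose, 1 fell and the median was 0.72. DESeq2 called 10 genes of the list. Of 23 integrated stress response genes, 2 rose, 8 fell and 13 did not pass the test. Ddit3, or CHOP, had 728, 651 and 763 in double-KO libraries, against 1143, 1097 and 1681 in Mll2-KO libraries (log2 fold change -0.85 ± 0.12, adjusted p = 6.8e-06), and Trib3, a pseudokinase of the same response, fell as well (log2 -0.55, adjusted p = 1.7e-05). The regulator Atf4 did not pass the test (log2 -0.011, adjusted p = 0.89), and Slc7a11, the cystine transporter, rose (log2 1.27, adjusted p = 0.00083). Without replicate 3, 4 stress response genes rose and 6 fell of 22 tested, a share of falls near that of all genes, and their median was -0.042, against -0.20 with all libraries.

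Germline genes were lower in double-KO cells. Of 29 tested, 3 rose, 20 fell and 6 did not pass the test, with a median of -0.73. Smc1b, a meiotic cohesin (log2 -2.42, adjusted p = 1.2e-07), Sohlh2, a germ cell transcription factor (log2 -1.70, adjusted p = 2.8e-08), and Tex11, a meiotic recombination gene (log2 -1.62, adjusted p = 1.9e-08), fell most, and Tdrd12, a piRNA pathway gene, rose (log2 1.43, adjusted p = 2.7e-09). Genes of the 2-cell-like state, which flickers on in a few cells of such cultures, mostly fell, and of 17, 1 rose, 11 fell and 5 did not pass the test. The 1 rise was that of Eif1a, a translation initiation factor gene with 4548, 4422 and 4217 in double-KO libraries, against 3334, 2956 and 3176 in Mll2-KO libraries (log2 fold change 0.48 ± 0.048, adjusted p = 8.2e-08). It held most of the reads of the list, whose summed level was higher in double-KO cells, at 4433 to 4843 in double-KO libraries, against 3598 to 4086 in Mll2-KO libraries. Zscan4c, which cannot be separated well from its near-identical copies, had 53.3, 52.2 and 37.8 in double-KO libraries, against 149, 149 and 74.0 in Mll2-KO libraries (log2 fold change -1.31 ± 0.21, adjusted p = 3.2e-05). Without Mll2-KO replicate 3, 1 gene of the list rose and 12 fell.

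Imprinted genes moved both ways, and of 39, 17 rose, 10 fell and 12 did not pass the test. The maternally expressed RNAs H19, Meg3 (log2 -3.25, adjusted p = 0.00016) and Rian (log2 -2.67, adjusted p = 2.9e-06) fell, all at low counts in double-KO libraries. The log2 fold change of Meg3 was -2.34 without double-KO replicate 2 and -3.91 without replicate 3. Nnat, which encodes neuronatin, had 101, 107 and 90.3 in double-KO libraries, against 25.1, 17.7 and 27.5 in Mll2-KO libraries (log2 fold change 2.06 ± 0.19, adjusted p = 2e-08), and Peg10 (log2 0.83, adjusted p = 1.3e-08), Gnas (log2 0.89, adjusted p = 2.9e-11) and Cdkn1c, a cell cycle inhibitor (log2 1.0, adjusted p = 2.9e-08), rose. Xist, the RNA that silences an X chromosome, had 27.6, 37.0 and 29.2 in double-KO libraries, against 5.37, 8.06 and 1.53 in Mll2-KO libraries (log2 fold change 2.61 ± 0.63, adjusted p = 0.002), a rise within very low counts.

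Hox genes, the best known MLL1 targets, were barely expressed in these cells, and 12 of 39 passed the filter on low counts. Of those, 8 fell and none rose. Hoxd9 had 1.97, 0.842 and 6.88 in double-KO libraries, against 8.95, 26.6 and 33.6 in Mll2-KO libraries (log2 fold change -2.59 ± 0.63, adjusted p = 0.002). Hoxd8 (log2 -2.57, adjusted p = 0.00013), Hoxd13 (log2 -1.66, adjusted p = 0.0002) and Hoxb4 (log2 -1.72, adjusted p = 0.002) fell as well. With quantile scaling no HoxA gene passed the test. Genes that passed the filter only through their Mll2-KO level had to differ, so these counts describe the genes that were measured.

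Among the remaining lists, p53 targets leaned lower, and of 19, 1 rose, 11 fell and 7 did not pass the test. Rrm2b, a ribonucleotide reductase subunit, fell most (log2 -1.33, adjusted p = 4.6e-09), while Cdkn1a (log2 -0.37, adjusted p = 0.00012) and Mdm2 (log2 -0.28, adjusted p = 0.00026) fell slightly. Of 11 genes of MHC class I presentation, 0 rose, 6 fell and 5 did not pass the test, led among the better measured genes by B2m, the shared light chain (log2 -1.31, adjusted p = 6.1e-09), and the peptide transporter Tap1 (log2 -1.27, adjusted p = 3.3e-07). Interferon-stimulated genes were mixed, with 6 rose, 2 fell and 5 did not pass the test of 13. Ifitm3 (log2 0.92, adjusted p = 8.6e-11) and the RNA sensor gene Ddx58 (log2 0.77, adjusted p = 3.1e-07) rose. Of 23 COMPASS subunits, 13 rose, 2 fell and 8 did not pass the test, and 1 of the 2 falls was that of Kmt2a, the deleted gene itself. Setd1b, another H3K4 methyltransferase, rose most (log2 0.72, adjusted p = 3.4e-07), and Men1, the menin subunit that binds MLL1 and MLL2 (log2 0.35, adjusted p = 2e-05), rose a little. Polycomb genes were mixed, and of 29, 8 rose, 6 fell and 15 did not pass the test, near the shares of all genes. Jarid2 rose (log2 0.69, adjusted p = 7e-10) while Ezh1, a histone H3 lysine 27 methyltransferase, fell (log2 -0.40, adjusted p = 0.00049).

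Markers of other cell types were called about as often as all genes tested, or less often. Of all genes, 23.4% were higher and 24.3% lower. Of 14 mesoderm markers tested, 1 rose, 4 fell and 9 did not pass the test, of 13 trophectoderm markers 3 rose, 2 fell and 8 did not pass the test, and of 10 fibroblast markers 2 rose, 3 fell and 5 did not pass the test. Summed levels were 483 to 622 in double-KO libraries, against 654 to 866 in Mll2-KO libraries for mesoderm, 2414 to 2727 in double-KO libraries, against 2446 to 2545 in Mll2-KO libraries for trophectoderm and 886 to 997 in double-KO libraries, against 829.7 to 963 in Mll2-KO libraries for fibroblast markers. Most of the trophectoderm sum was Tfap2c, an AP-2 transcription factor, with 1579, 1520.5 and 1759 in double-KO libraries, against 1422, 1431 and 1321 in Mll2-KO libraries (log2 fold change 0.22 ± 0.069, adjusted p = 0.014), a call that was lost without double-KO replicate 3 (adjusted p = 0.096) and with scaling to column totals or by quantiles. Gata2, a factor of blood and trophectoderm, had 49.3, 62.3 and 41.3 in double-KO libraries, against 129.8, 138 and 246 in Mll2-KO libraries (log2 fold change -1.69 ± 0.29, adjusted p = 6.3e-05). Pdgfrb, a receptor of mesenchymal cells, fell (log2 -2.15, adjusted p = 1.3e-05), and the smooth muscle genes Acta2 (log2 0.83, adjusted p = 0.0021) and Tagln (log2 0.78, adjusted p = 0.00011) rose. The part of such cells in these differences was not tested.

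Mll1 loss was also measured in cells that keep MLL2, and the difference of the 2 effects asks which changes differ between the 2 settings. Mll1-KO against WT shares no library with double-KO against Mll2-KO. The sources used here do not say whether Mll1-KO and double-KO cells came from the same edited cells. Agreement through a shared clone and agreement through loss of MLL1 therefore cannot be told apart. Mll2-containing cells were untreated, so presence of MLL2 and absence of 4-OHT cannot be told apart here. In Mll1-KO against WT, 2978 genes (21.3%) were higher and 2616 (18.7%) lower. Across the 13984 genes the log2 changes of the 2 comparisons correlated with Pearson's r = 0.666 and Spearman's rho = 0.666, given as a description, since genes are not independent replicates. Of the 3401 genes lower without MLL2, 1786 (52.5%) were also lower with MLL2, which is 68.3% of the 2616 lower there. Of the 3266 higher genes, 2038 (62.4%) were also higher with MLL2, or 68.4% of the 2978. Among the 779 genes lower by at least 2-fold, 446 were lower and 0 higher in Mll1-KO against WT.

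Many endoderm and basement membrane genes fell in both settings. In Mll1-KO against WT, 11 of the 15 endoderm transcription factors were lower and 1 was higher, and 17 of the 19 basement membrane genes were lower and 2 were higher. Cubn had 201, 206 and 187 in Mll1-KO libraries, against 2666, 2563 and 2663 in WT libraries, and its change without MLL2 minus that with MLL2 was 0.14 ± 0.095, adjusted p = 0.4. Col4a1 had 1213, 1054 and 992 in Mll1-KO libraries, against 8494, 8431 and 8233 in WT libraries (log2 -2.95, adjusted p = 7.1e-19), and its fall was somewhat larger without MLL2, by -0.38 ± 0.087, adjusted p = 0.0084. Dab2, Sox17, Pdgfra and Nostrin had log2 changes without MLL2 of -3.45, -2.97, -2.61 and -4.05, against -3.76, -3.08, -2.70 and -3.93 with it. The difference of effects passed the test for Klb (-1.60 ± 0.31, adjusted p = 0.0023), Slc38a4 (-1.07 ± 0.082, adjusted p = 1.6e-08), Lamb1 (-0.65 ± 0.083, adjusted p = 2.9e-05) and H19 (-1.29 ± 0.25, adjusted p = 0.002), all falling further without MLL2. The lists did not lean that way. Among endoderm transcription factors the difference was higher for 4 genes and lower for 1, and their median change was -1.35 without MLL2 and -1.87 with it. Among basement membrane genes it was higher for 4 and lower for 3, with medians of -1.09 and -1.05.

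For 1277 genes (9.13%) the effects differed, with 618 differences higher (4.42%) and 659 lower (4.71%). Lef1 was high wherever MLL2 was present: it had 349, 368 and 293 in Mll1-KO libraries, against 221, 305 and 277 in WT libraries (log2 0.33, adjusted p = 0.1), and the difference of effects was 2.96 ± 0.23, adjusted p = 1.6e-08. Lefty1 had 592, 471 and 506 in Mll1-KO libraries, against 445, 499.7 and 574 in WT libraries, with a difference of 1.86 ± 0.17, adjusted p = 2.2e-07, and Lefty2 had one of 2.16 ± 0.22, adjusted p = 1.7e-06. For these 3 genes every Mll2-KO library lay below every library of the other genotypes. Zic2 had the same order, with 168, 175 and 161 in Mll1-KO libraries, against 181, 182 and 207 in WT libraries and a difference of 1.51 ± 0.17, adjusted p = 7.5e-06, and Tfrc did too (1.45 ± 0.1, adjusted p = 5.4e-09). The double-KO level of Lef1 remained under that of every Mll1-KO and WT library.

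The largest differences, by the rule that named 5 genes in each direction, were of several kinds. A2m, a protease inhibitor of plasma, had 37.0, 20.5 and 22.8 in Mll1-KO libraries, against 323, 513 and 487 in WT libraries, and 9.86, 18.5 and 21.5 in double-KO libraries, against 7.16, 11.3 and 13.0 in Mll2-KO libraries (difference 4.60 ± 0.43, adjusted p = 4e-07). It was low in all groups other than WT, and so was Ndufa4l2, a mitochondrial protein induced by low oxygen, with 39.1, 26.4 and 40.5 in Mll1-KO libraries, against 368, 504 and 609.6 in WT libraries (difference 4.16 ± 0.29, adjusted p = 3.9e-09). Grin1, a glutamate receptor subunit (difference 4.44 ± 0.64, adjusted p = 0.00013), and Ier3, an early response gene (difference 2.99 ± 0.26, adjusted p = 1.4e-07), were higher in double-KO than in Mll2-KO cells but lower in Mll1-KO than in WT cells. The rise of Grin1 was lost without Mll2-KO replicate 3 (adjusted p = 0.105), double-KO replicate 2 (0.0502) or double-KO replicate 3 (0.0723), and with DESeq2 (0.057). In the other direction Gata2 had 45.3, 36.1 and 30.4 in Mll1-KO libraries, against 18.4, 42.5 and 23.3 in WT libraries, with a difference of -2.15 ± 0.4, adjusted p = 0.0017, and Slc43a3, a purine transporter, one of -1.78 ± 0.35, adjusted p = 0.0025. Klb has been given above, and Ndufs5-ps, a pseudogene, is uncertain (difference -1.76 ± 0.4, adjusted p = 0.0074). Eif3j1 had 0, 1.68 and 0 in double-KO libraries, against 612, 1620.3 and 1617 in Mll2-KO libraries, but reads pass between it and its near-identical copy Eif3j2. The sum of both was 2661, 2511 and 2533 in double-KO libraries, against 2326, 2249 and 2219 in Mll2-KO libraries.

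Glycolysis genes differed in the effect of Mll1 loss between the 2 settings. In Mll1-KO against WT 21 of the 22 genes were lower, with a median of -0.60, and the difference of effects was higher for 16 genes. Summed levels were 338948 to 361491 in Mll1-KO libraries and 426976 to 458752 in WT libraries, so both groups without MLL1 were near each other and Mll2-KO was lowest. Ldha had 23053, 21069.5 and 20006 in Mll1-KO libraries, against 30105, 32861 and 33163 in WT libraries, with a difference of 1.53 ± 0.12, adjusted p = 1.6e-08. Slc16a3 had 1048, 1024 and 879 in Mll1-KO libraries, against 2618, 3157 and 3151 in WT libraries, with a difference of 2.71 ± 0.13, adjusted p = 1.3e-11. Of 25 hypoxia targets, 20 were lower in Mll1-KO against WT, with a median of -1.06, and the difference was higher for 16 and lower for 1. For cholesterol synthesis genes the difference was higher for 16 of 25, and for stress response genes lower for 11 of 23. Both lists are the ones moved by Mll2-KO replicate 3, and these counts of differences were not made without it.

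**Figure D3:**
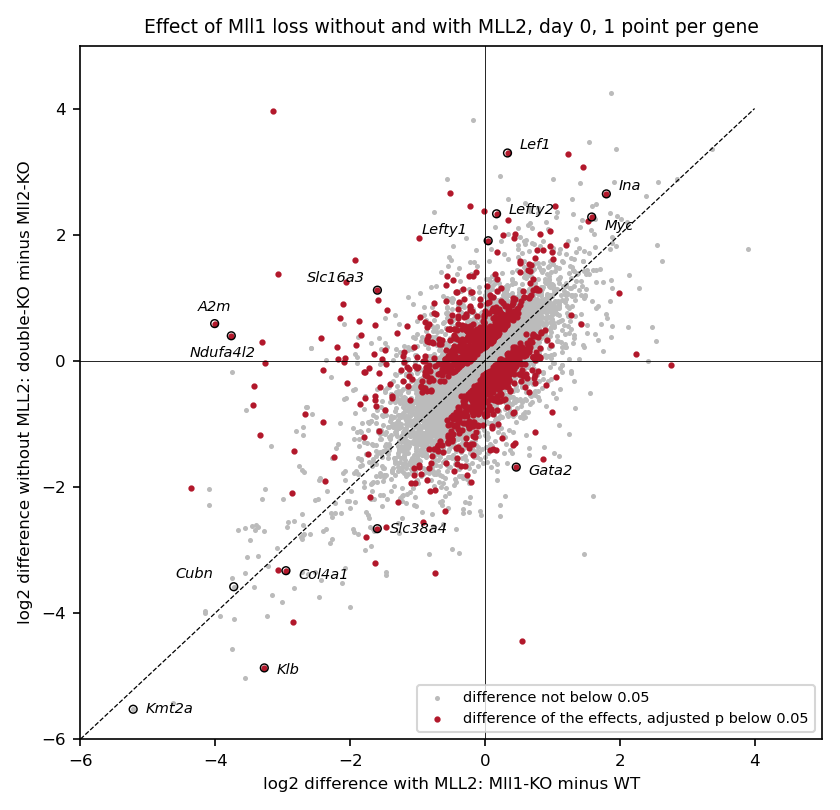
Log2 effect of Mll1 loss without MLL2 (double-KO minus Mll2-KO, vertical axis) against that with MLL2 (Mll1-KO minus WT, horizontal axis) at day 0, 1 point per gene tested, red where the 2 effects differed at an adjusted p below 0.05; the dashed line marks equal effects. Endoderm genes such as Cubn lie near the dashed line at the lower left, Lef1, Lefty1 and Lefty2 lie high near the vertical zero line, and Slc16a3, A2m and Ndufa4l2 lie to the left; Eif3j1 lies below the axes.

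**Figure D4:**
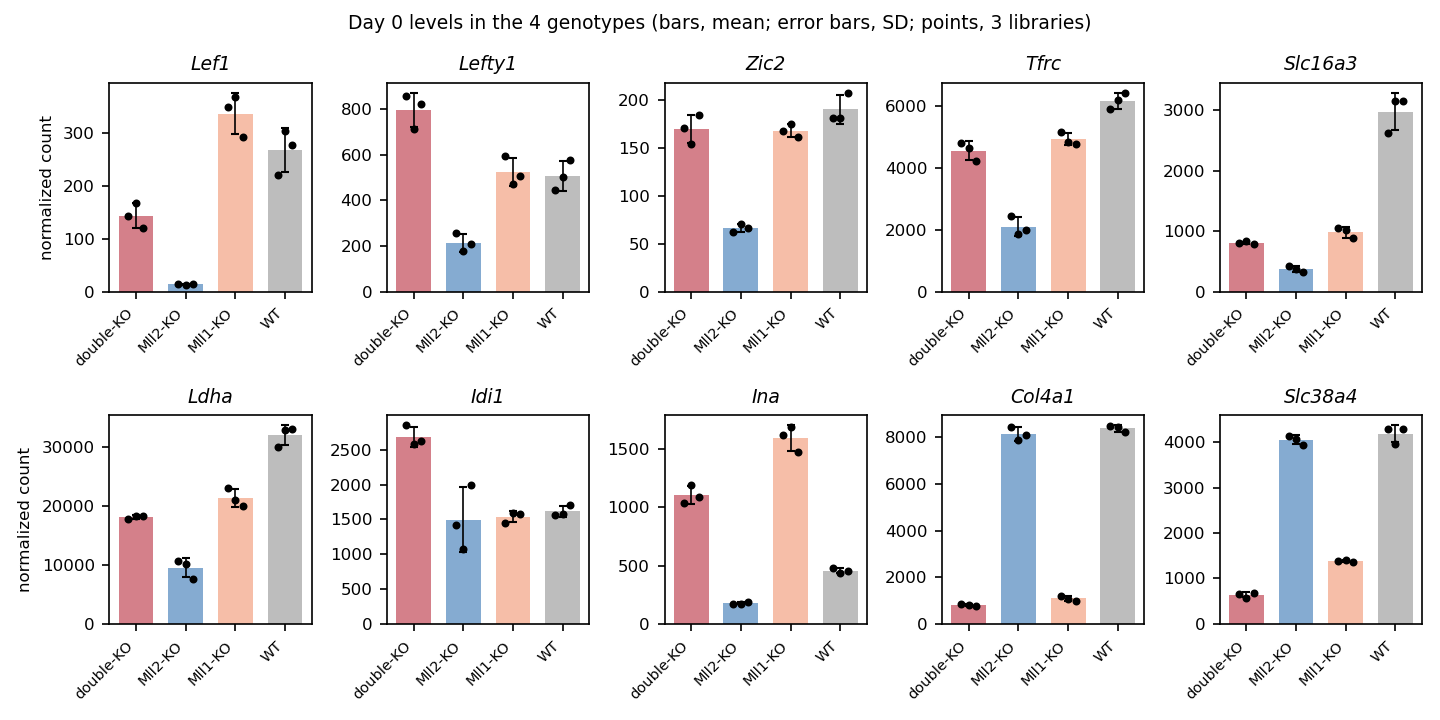
Normalized counts of 10 genes in the 4 genotypes at day 0 (bars, mean; error bars, SD; points, the 3 libraries of each group). Mll2-KO is the lowest group for Lef1, Lefty1, Zic2, Tfrc, Slc16a3, Ldha and Ina, and both groups without MLL1 are low for Col4a1 and Slc38a4.

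After 4 days in retinoic acid the effect of Mll1 loss was different for many genes. In double-KO against Mll2-KO at day 4, 2106 of 15114 genes (13.9%) were higher and 2560 (16.9%) lower, and the effect differed between days for 5814 genes (38.5%), 2835 higher (18.8%) and 2979 lower (19.7%) at day 4. Scaling to column totals gave 3606 higher and 2067 lower. Across genes the changes at day 0 and day 4 correlated with r = 0.179 and rho = 0.128. Of the 779 genes that were lower by at least 2-fold at day 0, 196 were lower and 48 higher at day 4.

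Part of the endoderm and basement membrane genes were lower in double-KO cells at day 4 too. Of 15 endoderm transcription factors 7 were lower and 0 higher, of 11 endocytosis genes 8 were lower and 1 higher, of 13 parietal endoderm markers 5 were lower and 1 higher, and of 19 basement membrane genes 13 were lower and 3 higher. Among the 9 laminin genes 5 were higher and 3 lower. Col4a1 had 78122, 74379 and 74834 in day 4 double-KO libraries, against 134474, 137590.0 and 138650.0 in day 4 Mll2-KO libraries (log2 -0.85, adjusted p = 2e-12), and the effect differed between days by 2.48 ± 0.074, adjusted p = 2.7e-19. Cubn had 6762, 7176 and 7478 in day 4 double-KO libraries, against 15701, 17078 and 15596 in day 4 Mll2-KO libraries (log2 -1.18, adjusted p = 3.1e-14). Klb (log2 -1.32, adjusted p = 5.9e-08), Srgn (log2 -1.09, adjusted p = 1.3e-06) and Lama1 (log2 -0.77, adjusted p = 9.9e-12) were lower by less than at day 0, with differences of 3.55, 2.88 and 1.23 that all passed the test. Bmper, an example of the 5 largest differences upwards, had 210.4, 259 and 198 in day 4 double-KO libraries, against 277, 277 and 247 in day 4 Mll2-KO libraries (log2 -0.27, adjusted p = 0.42; difference 3.83 ± 0.33, adjusted p = 1.1e-09). H19 remained lower in double-KO cells, with 768, 687 and 703 in day 4 double-KO libraries, against 8696, 8948 and 8016 in day 4 Mll2-KO libraries (log2 -3.57, adjusted p = 8.9e-22). Its counts in both groups were far above those of day 0.

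Several rises of day 0 turned into falls. Ina had 23.5, 19.9 and 18.2 in day 4 double-KO libraries, against 43.1, 47.9 and 42.6 in day 4 Mll2-KO libraries (log2 -1.08, adjusted p = 9.9e-08; difference -3.73 ± 0.17, adjusted p = 5.2e-15). Msc (log2 -1.23, adjusted p = 0.016; difference -3.69 ± 0.55, adjusted p = 5.6e-06) and Lefty2 (log2 -0.79, adjusted p = 0.0028; difference -3.12 ± 0.28, adjusted p = 1.6e-09) did the same, as did Lefty1 (log2 -0.67, adjusted p = 0.005; difference -2.57) and L1td1 (log2 -0.85, adjusted p = 1.7e-11; difference -1.96). Prlr, the prolactin receptor, had 245, 274 and 276 in day 4 double-KO libraries, against 395, 367 and 439 in day 4 Mll2-KO libraries (difference -2.93 ± 0.51, adjusted p = 5.1e-05), and Mup6, an uncertain gene, had a difference of -3.18 ± 0.48, adjusted p = 7.2e-06. Lef1, Myc and Egr1 remained higher in double-KO cells at day 4, with log2 fold changes of 1.09, 0.60 and 1.20. The other genes with the largest upward differences between days, Eif3j1, Amd1, Tmem254c and Ly6g2, belong to families of near-identical copies or had almost no reads in a group, and their values are uncertain.

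**Figure D5:**
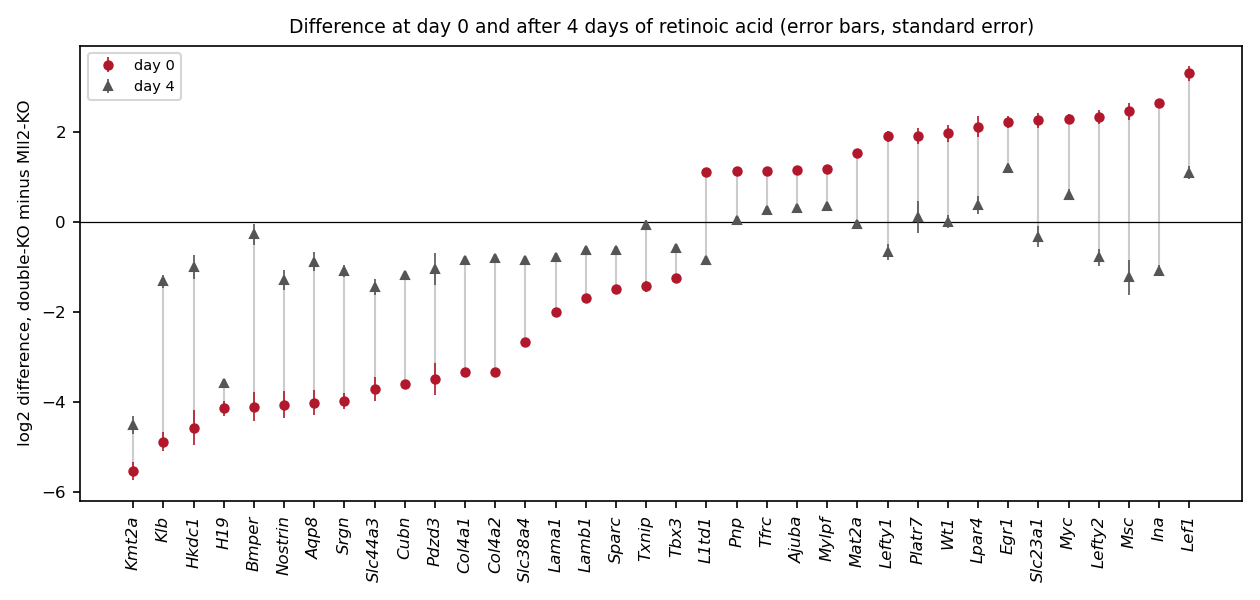
Log2 difference of double-KO minus Mll2-KO cells at day 0 (red circles) and day 4 (grey triangles) for the genes with the largest changes at day 0, ordered by the day 0 value; error bars are standard errors. The largest day 0 falls are smaller at day 4, and Ina, Msc, Lefty1, Lefty2 and L1td1 lie above 0 at day 0 and below 0 at day 4.

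Promoters were described for the 8844 tested genes with a single RefSeq window. The median window of 300 bases held 21 CpG, against 16 for the genes lower by at least 2-fold and 11 for those higher by at least 2-fold. Windows with under 10 CpG made up 16.1% of all, 31.6% of the lower and 47.6% of the higher genes. Genes with such changes were also weakly expressed, with a median Mll2-KO count of 45.3 for lower and 15.8 for higher genes, against 403 for all. The Mll2-KO count also enters the fold change by which the lower and higher genes were chosen. The gap between the medians of lower and higher genes is therefore set in part by that choice. Among genes of the lowest tercile of expression, 8.24% of genes with under 10 CpG and 3.85% of the others were higher by at least 2-fold, and 13.6% and 12.4% were lower. In the middle tercile these shares were 2.58% and 0.607% for higher genes, and 3.23% and 1.74% for lower genes. The highest tercile had 2.42% and 0.216% for higher genes, and 1.21% and 0.395% for lower genes. The letters CTTTGA or TCAAAG stood in 16.9% of windows of higher genes, 13% of lower genes and 11.6% of all. Windows of higher genes were also poorer in CpG, and the letters were not counted in windows matched for CpG. Whether their share differs beyond that was not tested. The medians of the chromosomes ran from -0.077 on chromosome 6 to 0.075 on the X chromosome.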

How the data were processed

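PolyA RNA of mouse embryonic stem cells was sequenced from stranded libraries, per the labels' protocols; whether counting used strand is not stated. The authors deposited 1 table of normalized counts, recorded here as signal: the gene counts of each library over 1 size factor. Whole reads came back from 100% of values (tolerance 1e-06). The submitters' processing notes name the build mm10 and, in no stated order, STAR 2.7.10a, SAMtools 1.13, RSEM 1.3.1, Trim Galore 3.4, DESeq2 1.34.0 and FastQC. Day 0 WT columns carry 1 letter more than the labels, and no other column could be day 0 WT. Reads may be divided between near-identical copies, which were therefore summed.

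The main test was limma 3.58.1 with its trend option (R 4.3.3), applied to log2(normalized count + 1). Genes needed a value of 10 in 3 or more libraries, and the fit held all 12 day 0 libraries, or all 24 for the comparison of days. P-values were adjusted by the Benjamini-Hochberg method over all genes tested, with calls below 0.05. Other settings were edgeR 4.0.16 (TMM), DESeq2 1.42.0, other pseudocounts (0.5, 5) and filters (none, 50), scaling by column totals or by quantiles, only the groups compared, a replicate block, and each library left out. Simulated counts for double-KO against Mll2-KO at day 0 (13497 genes) held changes of 1.5-fold in 67 genes, 2-fold in 67 and 4-fold in 66. The changed genes all had a Mll2-KO mean of about 50 or more. Limma recovered 85.1% at 1.5-fold, 98.5% at 2-fold and 100% at 4-fold, and 5.5% of calls were false. Far fewer genes were changed there than were called in the data. These rates therefore do not carry over to genes with low counts or to the data as a whole. The named genes were Kmt2a and Kmt2b; the 12 largest rises and falls among calls whose higher mean reached 100 and whose groups did not overlap; 8 more each way by difference of means; up to 4 members of a list in full; and 5 each way for the differences by MLL2 and by day. Further members of the 46 lists have shorter values, and a few are not reported here. The comparison, members and lists were chosen with earlier results of these data known. Positions came from GENCODE M21 and promoters from RefSeq GRCm38.p6.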

Additional observations from a re-analysis of the deposited data

Results flagged for a closer look

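The effect of Mll1 loss at day 0 differed between cells without and with MLL2 for 1277 genes, tested as the difference of the 2 effects. Among the named genes, the difference, without minus with MLL2 on the log2 scale, was higher for A2m (4.60), Grin1 (4.44), Ndufa4l2 (4.16), Ier3 (2.99), Lef1 (2.96), Slc16a3 (2.71), Lefty2 (2.16), Lefty1 (1.86), Ldha (1.53), Zic2 (1.51) and Tfrc (1.45). It was lower for Eif3j1 (-12.54), Gata2 (-2.15), Slc43a3 (-1.78), Ndufs5-ps (-1.76), Klb (-1.60), H19 (-1.29), Slc38a4 (-1.07), Lamb1 (-0.65) and Col4a1 (-0.38). The groups with MLL2 had no 4-OHT, and the drug and MLL2 cannot be told apart.

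The effect of Mll1 loss without MLL2 differed between day 4 and day 0 for 5814 genes, tested in the same way. Among the named genes, the difference, day 4 minus day 0 on the log2 scale, was higher for Eif3j1 (9.72), Amd1 (6.91), Tmem254c (5.77), Bmper (3.83), Ly6g2 (3.74), Klb (3.55), Srgn (2.88), Col4a1 (2.48) and Lama1 (1.23). It was lower for Ina (-3.73), Msc (-3.69), Mup6 (-3.18), Lefty2 (-3.12), Prlr (-2.93), Lefty1 (-2.57) and L1td1 (-1.96). The values of Eif3j1, Amd1, Tmem254c, Ly6g2 and Mup6 rest on near-identical copies or on groups with almost no reads. No outlier test was made, since each group had 3 libraries.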

How the results depend on the processing

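Double-KO against Mll2-KO at day 0 gave 5812 to 6514 calls when each library was left out in turn and 5894 to 6818 under the other alternatives, against 6667. The difference by MLL2 gave 862 to 1462 calls with a library left out and 1027 to 1497 otherwise, against 1277, and the difference by day gave 5295 to 5770 and 5270 to 6048, against 5814. A replicate block gave 6818, 1497 and 5803 calls for the 3 comparisons; libraries of the same number did not deviate together (median r = 0.0035, range -0.044 to 0.093), so the numbers were not taken as pairs. Values near 0 that did not pass the test changed sign: Agrn with column totals (-0.000199) and quantile scaling (-0.041), Lama5 with quantile scaling (-0.027), Kmt2b with column totals (-0.0031) and quantile scaling (-0.017), Smad2 with column totals (-0.035), quantile scaling (-0.024), and, with a library left out, Atf4 (-0.066 to 0.074), Otx2 (-0.12 to 0.85) and Smad2 (-0.0023 to 0.057). The cause was not tested. Among lists, called members changed by over 1.5 times for trophectoderm markers (3 with column totals or without Mll2-KO replicate 2 or double-KO replicate 3, against 5), respiratory chain subunits (8 without Mll2-KO replicate 1 or double-KO replicate 3, against 13), HoxC (0 without double-KO replicate 1, against 1), HoxA (1 without Mll2-KO replicate 1 or 3 or double-KO replicate 1 or 2, against 2), ribosomal proteins (39 with quantile scaling and 14 to 15 without Mll2-KO replicate 1 or double-KO replicate 2 or 3, against 24), protocadherins (2 without Mll2-KO replicate 2 or double-KO replicate 3, against 4), oocyte genes (5 with quantile scaling, against 3) and Polycomb genes (8 with quantile scaling, against 14). A pseudocount of 5 lowered the fold of genes with few reads, among them Bmper, Hkdc1, Dkk1, Sp5 and Meg3. A filter minimum of 50 left 11635 genes tested, against 13984. At least 2-fold calls then stood at 164 higher and 410 lower, against 324 and 779. Many of the at least 2-fold calls were therefore in genes that did not reach 50 in 3 libraries. Depth limited genes with few reads, such as Hox and 2-cell-like genes.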

Other observations

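Of 81 ribosomal protein genes, 7 rose, 17 fell and 57 did not pass the test, with a median of -0.013. This split was not stable: without double-KO replicate 2, 9 were higher and 6 lower, and with quantile scaling 8 were higher and 31 lower. Of 30 adhesion and cytoskeleton genes tested, 7 rose, 12 fell and 11 did not pass the test: Vim, the intermediate filament vimentin, rose (log2 0.91, adjusted p = 3.2e-09), and Fn1, fibronectin (log2 -0.45, adjusted p = 1.1e-05), and Tjp1, a tight junction scaffold (log2 -0.46, adjusted p = 8.6e-07), fell. Of 22 clustered protocadherins tested out of 56, 1 rose, 3 fell and 18 did not pass the test. Of 17 DNA methylation genes, 6 rose, 3 fell and 8 did not pass the test, where Dnmt3l, a cofactor of the de novo enzymes, rose (log2 0.58, adjusted p = 3.2e-06) and Gadd45a, a stress-induced gene linked to demethylation, fell (log2 -0.86, adjusted p = 2.6e-07). Rhox5, an X-linked homeobox gene, had 235, 243 and 206 in double-KO libraries, against 556, 561 and 591 in Mll2-KO libraries (log2 -1.32, adjusted p = 3.3e-09), and of 9 genes of the oocyte tested, 3 rose, 0 fell and 6 did not pass the test.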
